A study of Mus musculus with 24 samples.

Results

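IL-1β and IL-18 were set directly against each other on top of tumour antigen: 6 libraries from co-cultures given antigen plus IL-1β against 6 from co-cultures given antigen plus IL-18. These 12 libraries, of 24 in the series, were chosen by their sample titles, 3 per genotype and cytokine. Every co-culture combined lymphocytes from the spleens of tumour-bearing mice with bone-marrow-derived macrophages and antigen of the tumour cells, which were B16-F10-OVA, mouse melanoma cells with ovalbumin. The macrophages were Tmem175-/- (called knockout here) or WT, and either cytokine was added at 500 pg/ml during the co-culture. The 4 groups were knockout with IL-1β, WT with IL-1β, knockout with IL-18 and WT with IL-18, and 6 co-cultures with antigen alone (3 knockout, 3 WT) stand beside them as levels only. The labels state neither the lymphocytes' genotype nor what sets the 3 samples of a group apart (mouse, preparation or well), so p-values here cover only the spread between these samples, which may be technical. In 11 of 12 knockout samples of the series the labelled genotype is a different, consecutively numbered gene, whereas titles and study design name Tmem175, and the titles were used.

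IL-1β and IL-18 are sister cytokines. Both are released by macrophages after cleavage by inflammasome caspases, and both signal through receptors that recruit MyD88 and lead to NF-κB. They differ in who listens: the IL-1 receptor is found on fibroblasts, myeloid cells, innate lymphoid cells and some T cells and drives acute-phase, neutrophil and type 17 responses, whereas the IL-18 receptor is best known on NK cells, T helper 1 cells and other lymphocytes, where IL-18 with IL-12 raises interferon γ. A direct contrast therefore asks which genes separate the cytokines when the antigen, the cells and the culture are shared.

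The 12 libraries held 18768422 to 24898552 counts each, and 13565 of 55487 listed genes had enough counts to be tested. Tmem175, a lysosomal cation channel, stood at 8.2, 9.25 and 8.44 CPM (counts relative to library size, with TMM factors) in knockout co-cultures with IL-1β and at 7.82, 8.82 and 8.15 CPM in knockout co-cultures with IL-18. In WT co-cultures it stood at 15.5, 16.1 and 15.9 CPM with IL-1β and at 12.8, 16.1 and 14.6 CPM with IL-18. Each knockout library was below every WT library, and the cytokine groups overlapped. The labelled cell type, immune cells, was mostly macrophage by RNA: Adgre1, which encodes the macrophage marker F4/80, stood between 4380 and 4820 CPM in the 12 libraries, and the T cell genes Cd3e and Trac between 0.743 and 2.32 CPM. The 12 macrophage markers summed to 19000 to 19600 CPM in knockout and 27000 to 27600 CPM in WT with IL-1β, against 17900 to 19000 CPM in knockout and 24200 to 27200 CPM in WT with IL-18, and their part in the results was not tested. The first principal component of the 12 libraries held 74.8% of the variance and followed genotype, the second held 5.48%.

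The difference between the cytokines was small in almost all genes. With genotype as a covariate, 157 of 13565 genes (1.16%) passed at an adjusted p under 0.05 (edgeR's quasi-likelihood test, Benjamini-Hochberg over all tested genes, with no minimum fold), 108 higher with IL-1β (0.796%) and 49 lower with IL-1β (0.361%). Of the 157, 3 were at least 2-fold higher with IL-1β (Mmp3, Il22 and Mmp10), 6 at least 1.5-fold higher (also Dcn, Gbp2b and Mmp13), none was 1.5-fold lower, and 119 changed by less than 1.2-fold. The median size among the 157 was 0.184 on the log2 scale, where the median SE over all tested genes was 0.0546. Without regard to the model, 394 genes (2.9% of those tested) had IL-1β libraries that did not overlap the IL-18 libraries in either genotype with the same direction in both, 231 higher (1.7%) and 163 lower (1.2%). The count of calls moved strongly with single libraries. It was 324 without knockout IL-1β replicate 1, 76 without knockout IL-1β replicate 3, 71, 38 and 81 without WT IL-1β replicate 1, 2 or 3, 607 without knockout IL-18 replicate 2, 75 without knockout IL-18 replicate 3, 51 without WT IL-18 replicate 1 and 72 without WT IL-18 replicate 3. Of the 157 genes 31 passed whichever of the 12 libraries was left out, 26 higher and 5 lower with IL-1β.

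**Figure D1:**
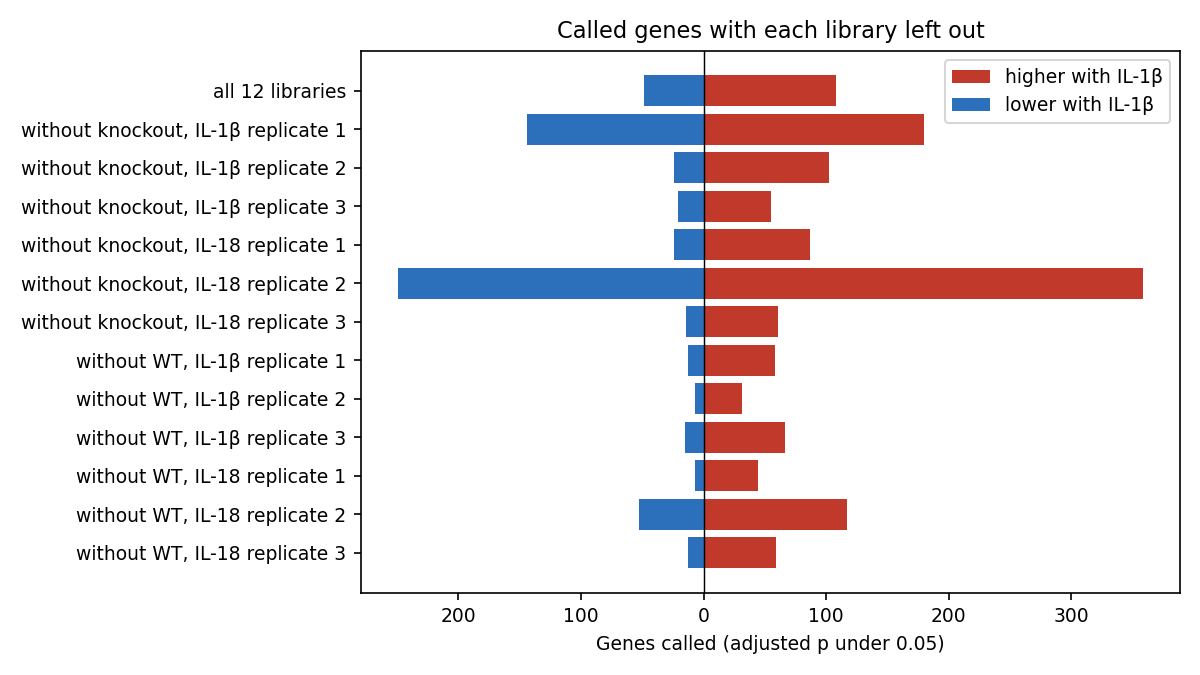
Number of genes called between antigen plus IL-1β and antigen plus IL-18 with all 12 libraries and with each library left out (bars to the right, higher with IL-1β; bars to the left, lower with IL-1β). The count ran between 38 and 607, against 157 with all 12 libraries.

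Il22 had the lowest p of all tested genes. It encodes IL-22, a cytokine of type 17 and innate lymphoid cells that acts on epithelia. It stood at 2.66, 2.63 and 2.62 CPM in knockout co-cultures with IL-1β, against 0.724, 0.269 and 0.571 CPM with IL-18, and at 4.1, 3.56 and 5.84 CPM in WT co-cultures with IL-1β, against 0.757, 1.01 and 1.26 CPM with IL-18. All IL-1β libraries were above all IL-18 libraries of either genotype, and the IL-18 libraries lay near antigen alone, which gave 0.469, 0.149 and 0.133 CPM in knockout and 1.36, 0.884 and 1.52 CPM in WT. Il22 rose 4.59-fold with IL-1β over IL-18 (log2 fold change 2.20 ± 0.177 SE, adjusted p 4.64e-07), by 2.30 ± 0.29 in knockout (adjusted p 0.00207) and 2.14 ± 0.232 in WT (adjusted p 0.000196). The level rests on 51 to 57 counts per library in knockout and 82 to 123 in WT with IL-1β, against 5 to 15 in knockout and 15 to 27 in WT with IL-18. Over both genotypes Il22 kept its call in each of the 19 fits that gave it an adjusted p, with log2 fold changes of 2.07 to 2.31. Of the 11 type 17 genes listed, 6 could be tested and Il22 was the one called, with a median of -0.0776 over the 6. Among all tested genes 0.796% were called higher. Il17a and Il17f, and Il23a outside that list, had at most 6 counts in any of the 12 libraries and were not tested. Il23r, the receptor chain for IL-23, stood at 0.14 on the log2 scale (adjusted p 0.19).

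**Figure D2:**
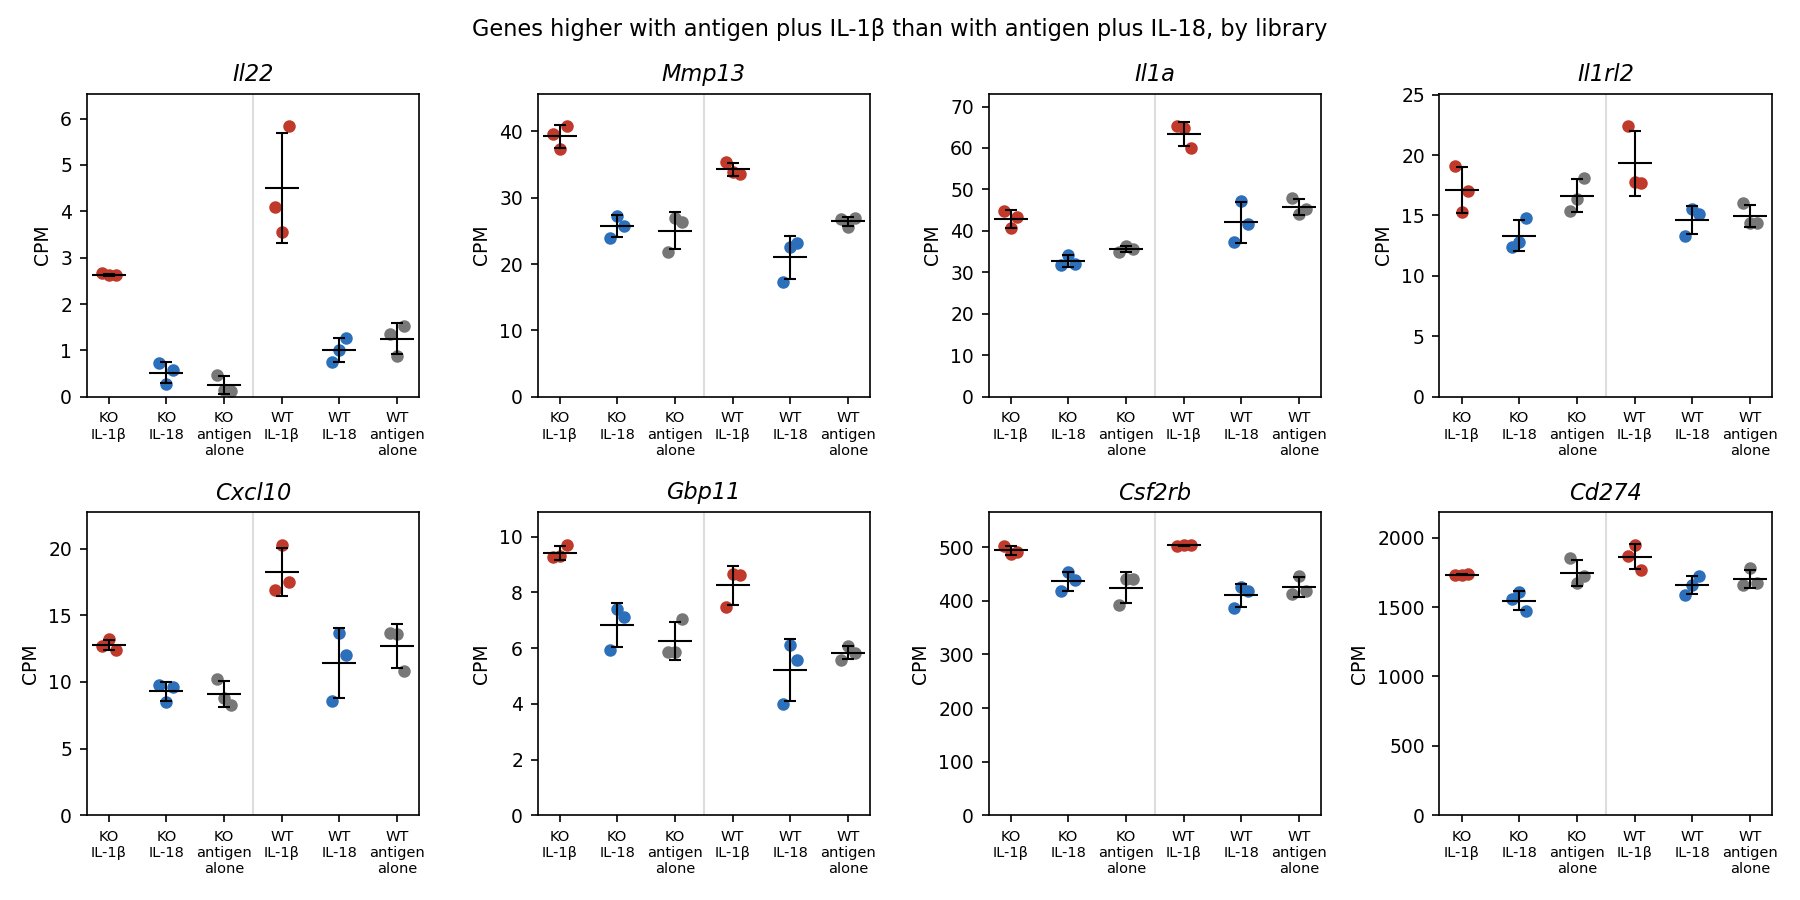
CPM of 8 genes in each library of the 6 groups with antigen (points; bar and whiskers, mean and SD of 3 libraries; axes start at 0). IL-1β libraries are above the IL-18 libraries of the same genotype in each of these 8 genes; antigen alone stands beside them.

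Matrix metalloproteinases, the enzymes that cut collagen and other matrix proteins, held 3 of the 6 calls of at least 1.5-fold. Of 12 tested Mmp genes 5 rose with IL-1β (Mmp13, Mmp3, Mmp10, Mmp8 and Mmp14) and none fell, where 0.796% of all tested genes rose. Their median log2 fold change was 0.167, against -0.000489 over all tested genes. The count of Mmp calls was 1 to 6 with single libraries left out (1 without WT IL-1β replicate 2, 3 without knockout IL-1β replicate 3, WT IL-1β replicate 1 or 3, knockout IL-18 replicate 3 or WT IL-18 replicate 3, and 2 without WT IL-18 replicate 1). Mmp13, collagenase 3, stood at 39.6, 37.4 and 40.8 CPM in knockout with IL-1β against 24, 27.3 and 25.8 CPM with IL-18, and at 35.4, 33.9 and 33.5 CPM in WT with IL-1β against 17.3, 22.6 and 23.2 CPM with IL-18. No IL-1β library came down to any IL-18 library. It rose 1.57-fold (log2 fold change 0.66 ± 0.0555, adjusted p 3.51e-06), and with Il22 it was one of the 2 genes called in knockout alone (0.61 ± 0.0791, adjusted p 0.00426). That call in knockout was lost without knockout IL-1β replicate 3 (0.59, adjusted p 0.0684), without knockout IL-18 replicate 3 (0.62, adjusted p 0.0753) and with all 24 libraries in the fit (0.61, adjusted p 0.483). With all 24 libraries the call in WT was lost too (0.70, adjusted p 0.217). Antigen alone gave 21.8, 26.9 and 26.3 CPM of Mmp13 in knockout and 26.8, 25.6 and 26.9 CPM in WT, between the cytokines in WT.

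The stromelysin genes, at the edge of detection, had the 1st and 3rd largest folds of all calls; Mmp10 was named after its values were seen. Mmp3, stromelysin 1, had 42, 26 and 24 counts in knockout with IL-1β against 4, 2 and 4 with IL-18, and 10, 32 and 17 counts in WT with IL-1β against 1, 4 and 14 with IL-18. The knockout libraries separated fully and the WT libraries overlapped (log2 fold change over both 2.35 ± 0.42, adjusted p 0.0157). Mmp10, stromelysin 2, had 12, 11 and 11 counts in knockout with IL-1β against 1, 2 and 6 with IL-18, and 7, 12 and 4 counts in WT with IL-1β against 1, 3 and 3 with IL-18 (log2 fold change 1.80 ± 0.367, adjusted p 0.019). Its lowest IL-1β library in WT had 1 count more than its highest IL-18 library. Both calls were lost without WT IL-1β replicate 2 (2.25 for Mmp3 and 1.69 for Mmp10), that of Mmp3 also without knockout IL-18 replicate 3 (2.21) or with all 24 libraries in the fit (2.39) and that of Mmp10 without WT IL-18 replicate 1 (1.71). The abundant members differed by less. Mmp8, neutrophil collagenase, stood at 380, 353 and 360 CPM in knockout with IL-1β against 268, 327 and 336 CPM with IL-18, and at 354, 339 and 349 CPM in WT with IL-1β against 243, 276 and 258 CPM with IL-18 (log2 fold change 0.33 ± 0.0601, adjusted p 0.0317). It kept its call in 5 of 12 fits with a library left out. Mmp8 is also one of 14 neutrophil markers, of which 13 were tested. Mmp8 and Csf3r, the G-CSF receptor (0.12 ± 0.0291, adjusted p 0.0366), were called higher, where 0.796% of all tested genes were. A total of 3 of 13 had a positive log2 fold change and the median was -0.0452. The number of markers called was 0 without knockout IL-1β replicate 3, WT IL-1β replicate 1 or 2, knockout IL-18 replicate 1 or WT IL-18 replicate 1 or 3, and 1 without knockout IL-1β replicate 2, WT IL-1β replicate 3 or knockout IL-18 replicate 3. The summed level of the 14 markers, Mmp8 included, was 1290 to 1550 CPM in knockout and 1220 to 1280 CPM in WT with IL-1β, against 1310 to 1480 CPM in knockout and 1110 to 1170 CPM in WT with IL-18. The sums were apart in WT and overlapped in knockout. Because they hold Mmp8 itself, they are no separate reading of its values, and a part of neutrophils in these was not tested. Mmp14, the membrane-bound activator of other members, rose by 0.11 ± 0.0245 (adjusted p 0.0279). Mmp12, macrophage elastase, had a log2 fold change of 0.54 with a 95% interval of 0.272 to 0.808 and an adjusted p of 0.0676, and Mmp9, gelatinase B, 0.15 with an interval of -0.07 to 0.362. The summed level of 10 fibroblast markers ran from 28.9 to 71 CPM in knockout and from 111 to 179 CPM in WT with IL-1β, against 40.4 to 80.9 CPM in knockout and 168 to 183 CPM in WT with IL-18, 9 of 10 had a negative log2 fold change, and the 1 called, Dcn (decorin, a matrix proteoglycan), rose by 0.89 ± 0.149 (adjusted p 0.00741) at 1.02 to 4.2 CPM. Their part in the metalloproteinase values was not tested. In bulk RNA of mixed cells, fewer cells of a type and less RNA per cell cannot be told apart.

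Within the IL-1 and IL-18 system itself, 1 of 12 tested ligands, antagonists and receptors was called, where 1.16% of all tested genes were. Without knockout IL-1β replicate 2 or knockout IL-18 replicate 1 the count was 3, and without knockout IL-18 replicate 2 it was 2. Il1a, which encodes the second IL-1 receptor agonist, IL-1α, stood at 44.7, 40.6 and 43.4 CPM in knockout with IL-1β against 31.9, 34.3 and 32 CPM with IL-18, and at 65.3, 64.8 and 60 CPM in WT with IL-1β against 37.4, 47.3 and 41.7 CPM with IL-18. The IL-1β libraries were higher in both genotypes without overlap, and Il1a rose 1.41-fold (log2 fold change 0.50 ± 0.0538, adjusted p 0.000222; 0.39 ± 0.0706 in knockout, adjusted p 0.113, and 0.59 ± 0.0658 in WT, adjusted p 0.000367). It kept its call over both genotypes in every alternative run, at 0.45 to 0.54. Antigen alone gave 35, 36.3 and 35.6 CPM in knockout and 47.9, 44.2 and 45.3 CPM in WT. Il1b, the gene of the added cytokine's own mouse counterpart, had 536, 427 and 508 CPM in knockout with IL-1β against 466, 409 and 409 CPM with IL-18, and 1000, 848 and 897 CPM in WT with IL-1β against 803, 808 and 816 CPM with IL-18. Its log2 fold change was 0.19 (95% interval 0.052 to 0.323, adjusted p 0.159). The other ligands and inhibitors were not called: Il18 stood at 0.18 (0.0238 to 0.327), the IL-1 receptor antagonist Il1rn at 0.08 (-0.0907 to 0.25) and the IL-18 decoy Il18bp at 0.22 (0.0942 to 0.352, adjusted p 0.0898). Nor were the receptors: Il1r1, the signalling IL-1 receptor, stood at -0.16 (-0.425 to 0.105), the decoy Il1r2 at 0.49 (0.178 to 0.796, adjusted p 0.0977), the shared chain Il1rap at 0.18 (0.0614 to 0.304), and the IL-18 receptor chains Il18r1 and Il18rap at -0.14 (-0.49 to 0.201) and -0.22 (-0.428 to -0.0189). Il1rl2, the receptor chain for IL-36 and a relative outside that list, stood at 19.1, 15.3 and 17 CPM in knockout with IL-1β against 12.4, 12.8 and 14.8 CPM with IL-18, and at 22.4, 17.8 and 17.7 CPM in WT with IL-1β against 13.3, 15.5 and 15.1 CPM with IL-18. It rose by 0.38 ± 0.0713 (adjusted p 0.0157), with no overlap in either genotype.

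Genes that interferon γ is known to raise came next. Of 18 tested genes of the interferon γ list 5 rose (Cxcl10, Socs1, Iigp1, Gbp7 and Cd274) and none fell, where 0.796% of all tested genes rose. All 18 had a positive log2 fold change, with a median of 0.198, against 49.7% positive over all tested genes. With single libraries left out the count was 2 to 9 (3 without knockout IL-1β replicate 3, WT IL-1β replicate 1 or 3, knockout IL-18 replicate 1 or 3 or WT IL-18 replicate 3, 2 without WT IL-1β replicate 2, 9 without knockout IL-1β replicate 2 and 8 without knockout IL-18 replicate 2). Of 20 alternative fits, Cxcl10 and Cd274 each kept their call in 19, Gbp7 in 17, Iigp1 in 12 and Socs1 in 11. Cxcl10, a chemokine that draws CXCR3-bearing T and NK cells, stood at 12.7, 13.2 and 12.4 CPM in knockout with IL-1β against 9.79, 8.5 and 9.62 CPM with IL-18, and at 16.9, 20.3 and 17.5 CPM in WT with IL-1β against 8.58, 13.7 and 12 CPM with IL-18. It rose 1.48-fold without overlap (log2 fold change 0.57 ± 0.0924, adjusted p 0.0107). Socs1, an inhibitor of JAK kinases, rose by 0.45 ± 0.096 (adjusted p 0.0409), with WT libraries apart and knockout libraries overlapping. Cd274, which encodes PD-L1, the ligand of the T cell checkpoint receptor PD-1, stood at 1730, 1730 and 1740 CPM in knockout with IL-1β against 1560, 1610 and 1470 CPM with IL-18, and at 1870, 1950 and 1770 CPM in WT with IL-1β against 1590, 1660 and 1720 CPM with IL-18. The groups did not overlap, and Cd274 was higher with IL-1β than with IL-18 by 0.17 ± 0.0272 (adjusted p 0.00587). In knockout, antigen alone stood at 1850, 1670 and 1720 CPM, around the IL-1β libraries and above every IL-18 library. In WT it stood at 1660, 1780 and 1670 CPM and overlapped both cytokines. Ifng itself stood at 4.29, 2.09 and 3.45 CPM in knockout with IL-1β against 3.86, 1.99 and 2.77 CPM with IL-18, and at 3.75, 2.9 and 3.51 CPM in WT with IL-1β against 2.42, 2.45 and 2.19 CPM with IL-18. Knockout libraries overlapped, WT libraries did not, and Ifng was not called (0.35, 95% interval -0.0129 to 0.705, adjusted p 0.319). Of 22 tested genes of the type I interferon list none was called by edgeR's test; 20 had a positive log2 fold change and their median was 0.147.

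The guanylate-binding proteins, interferon-inducible GTPases that attack vacuoles of intracellular pathogens, came to the same side throughout. All 11 tested Gbp genes had a positive log2 fold change (median 0.307) and 4 were called: Gbp2b, Gbp11, Gbp8 and Gbp7. Over all tested genes 49.7% were positive and 0.796% were called higher. Gbp11 stood at 9.27, 9.3 and 9.72 CPM in knockout with IL-1β against 5.93, 7.42 and 7.13 CPM with IL-18, and at 7.46, 8.67 and 8.64 CPM in WT with IL-1β against 3.99, 6.12 and 5.56 CPM with IL-18 (0.55 ± 0.088, adjusted p 0.00481). Gbp7 stood at 258, 229 and 247 CPM in knockout with IL-1β against 205, 222 and 214 CPM with IL-18, and at 247, 250 and 248 CPM in WT with IL-1β against 170, 202 and 197 CPM with IL-18 (0.29 ± 0.048, adjusted p 0.0145). Neither gene's groups overlapped in either genotype. Gbp2b rose by 0.81 ± 0.144 (adjusted p 0.0097) on 22 to 72 counts per library, and Gbp8 by 0.31 ± 0.0489 (adjusted p 0.00888). Gbp11 and Gbp8 each kept their call in 19 of 20 alternative fits, Gbp7 in 17 of 20 and Gbp2b in 18 of 19. Gbp5, which has also been linked to inflammasome assembly, stood at 218, 189 and 216 CPM in knockout with IL-1β against 182, 173 and 168 CPM with IL-18, and at 230, 234 and 226 CPM in WT with IL-1β against 128, 167 and 157 CPM with IL-18. Its libraries did not overlap, but over both genotypes it missed the threshold (0.43 ± 0.0854, adjusted p 0.0508). Of 10 tested immunity-related GTPases, a second interferon-inducible family, 4 rose, led by F830016B08Rik (0.48 ± 0.0987, adjusted p 0.0392) and Iigp1 (0.30 ± 0.0578, adjusted p 0.0352); all 10 were positive, with a median of 0.17. These counts depended on single libraries: 3 Gbp genes were called without WT IL-1β replicate 2, 8 without knockout IL-1β replicate 2, 7 without WT IL-18 replicate 1, 6 without knockout IL-18 replicate 2, no immunity-related GTPase without any one of the WT IL-1β libraries, 1 without knockout IL-1β replicate 3, knockout IL-18 replicate 1 or 3 or WT IL-18 replicate 3, and 2 without knockout IL-1β replicate 2. Near-identical Gbp and immunity-related GTPase genes can share reads, so the split between members is uncertain.

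Promoter sequence is shown for 3 of these genes and Il1a because they stand for the metalloproteinase, IL-1 and interferon groups. The 250 bases before the first listed RefSeq start on GRCm38.p6 are given 5′ to 3′ on the gene's strand, Mmp13 at chr9:7272264-7272513 (+), Il1a at chr2:129309973-129310222 (-), Cxcl10 at chr5:92348890-92349139 (-) and Gbp7 at chr3:142530086-142530335 (+). Capitals mark matches to the AP-1 motif TGANTCA, the NF-κB motif (GGG and CC with any 5 bases between), the STAT motif (GAS) TTCNNNGAA or the interferon-stimulated response element (ISRE, GAAA and GAAA with any 2 bases between), searched on both strands, with overlapping matches run together.
Mmp13: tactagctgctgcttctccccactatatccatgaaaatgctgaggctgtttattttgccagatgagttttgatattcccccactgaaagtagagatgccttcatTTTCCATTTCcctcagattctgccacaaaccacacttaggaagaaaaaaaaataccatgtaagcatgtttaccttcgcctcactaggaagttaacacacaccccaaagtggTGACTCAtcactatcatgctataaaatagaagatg
Il1a: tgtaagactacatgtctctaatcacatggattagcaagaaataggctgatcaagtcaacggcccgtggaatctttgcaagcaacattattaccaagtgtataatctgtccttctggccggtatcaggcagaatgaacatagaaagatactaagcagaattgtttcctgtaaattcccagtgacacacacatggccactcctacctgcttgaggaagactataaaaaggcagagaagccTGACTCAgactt
Cxcl10: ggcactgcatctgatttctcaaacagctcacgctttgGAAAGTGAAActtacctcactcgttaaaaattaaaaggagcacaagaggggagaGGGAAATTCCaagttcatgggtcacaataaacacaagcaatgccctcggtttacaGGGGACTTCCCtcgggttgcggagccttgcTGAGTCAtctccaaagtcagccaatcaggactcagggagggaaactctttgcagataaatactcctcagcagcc
Gbp7: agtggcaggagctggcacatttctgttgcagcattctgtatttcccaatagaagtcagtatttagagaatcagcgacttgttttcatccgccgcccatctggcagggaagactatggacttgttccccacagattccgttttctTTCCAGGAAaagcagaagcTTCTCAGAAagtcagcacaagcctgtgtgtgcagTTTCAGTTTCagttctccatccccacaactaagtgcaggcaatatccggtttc
Mmp13 held 1 AP-1 match 35 bases before the start and 1 ISRE match at 146 bases, and Il1a 1 AP-1 match at 12 bases. Cxcl10 held an AP-1 match at 74 bases, NF-κB matches at 159, 104 and 103 bases, the last 2 overlapping, and an ISRE match at 213 bases. Gbp7 held 2 GAS matches, at 106 and 87 bases, and an ISRE match at 53 bases. Among 27025 RefSeq promoters of the same length, 6.87% held an AP-1 match, 45.4% an NF-κB match, 7.18% a GAS match and 3.04% an ISRE match. Of the 108 genes higher with IL-1β 83 had a promoter in the table, and of these 10.8%, 54.2%, 9.64% and 9.64% held a match to the AP-1, NF-κB, GAS and ISRE motif; of the 49 lower genes 41 had one, with 2.44%, 70.7%, 7.32% and 2.44%. These shares are descriptions of letters in a window and were not tested.

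Single genes with other roles are described next. Apart from Cish, Tnfaip3 and Il12rb1 they were named after their values were seen, so they do not stand for a group. Cd164, a sialomucin of endosomes and the cell surface, stood at 201, 191 and 190 CPM in knockout with IL-1β against 163, 172 and 164 CPM with IL-18, and at 199, 205 and 209 CPM in WT with IL-1β against 148, 169 and 162 CPM with IL-18 (0.29 ± 0.033, adjusted p 8.39e-05). Csf2rb, the shared β chain of the receptors for GM-CSF, IL-3 and IL-5, stood at 503, 488 and 491 CPM in knockout with IL-1β against 418, 453 and 439 CPM with IL-18, and at 503, 504 and 505 CPM in WT with IL-1β against 386, 426 and 419 CPM with IL-18 (0.24 ± 0.0291, adjusted p 0.000206). Both genes were apart without overlap in each genotype. The mouse copy of Csf2rb for IL-3, Csf2rb2, rose by 0.20 ± 0.0354 (adjusted p 0.0139), although reads of the pair may be exchanged, while the GM-CSF receptor's own α chain Csf2ra stood at 0.00 (95% interval -0.071 to 0.0621). Csf2, which encodes GM-CSF, had at most 14 counts in any of the 12 libraries and was not tested. Jak2, the kinase that these receptors use, rose by 0.15 ± 0.0247 (adjusted p 0.00623), and Malt1, the paracaspase that relays antigen and lectin receptor signals to NF-κB, by 0.23 ± 0.0358 (adjusted p 0.00314). Cish, a feedback inhibitor of STAT5 signals, rose by 0.45 ± 0.105 (adjusted p 0.0361) at 4.36 to 9.3 CPM. Tnfaip3, the NF-κB inhibitor A20, was the single call among 18 NF-κB subunits and feedback genes (0.15 ± 0.0308, adjusted p 0.0243; median of the list 0.0155). That count was 0 without knockout IL-1β replicate 3, WT IL-1β replicate 1 or 2, knockout IL-18 replicate 3 or WT IL-18 replicate 1 or 3, and 2 without knockout IL-1β replicate 1, knockout IL-18 replicate 1 or 2 or WT IL-18 replicate 2. None of 15 MyD88 pathway genes was called (median -0.0194). Il12rb1, a chain of the IL-12 and IL-23 receptors, was the single call among 14 genes known to answer IL-18 in lymphocytes. It was higher with IL-1β (0.27 ± 0.0499, adjusted p 0.0136). Beside the counts of these lists, 1.16% of all tested genes were called in either direction.

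**Figure D3:**
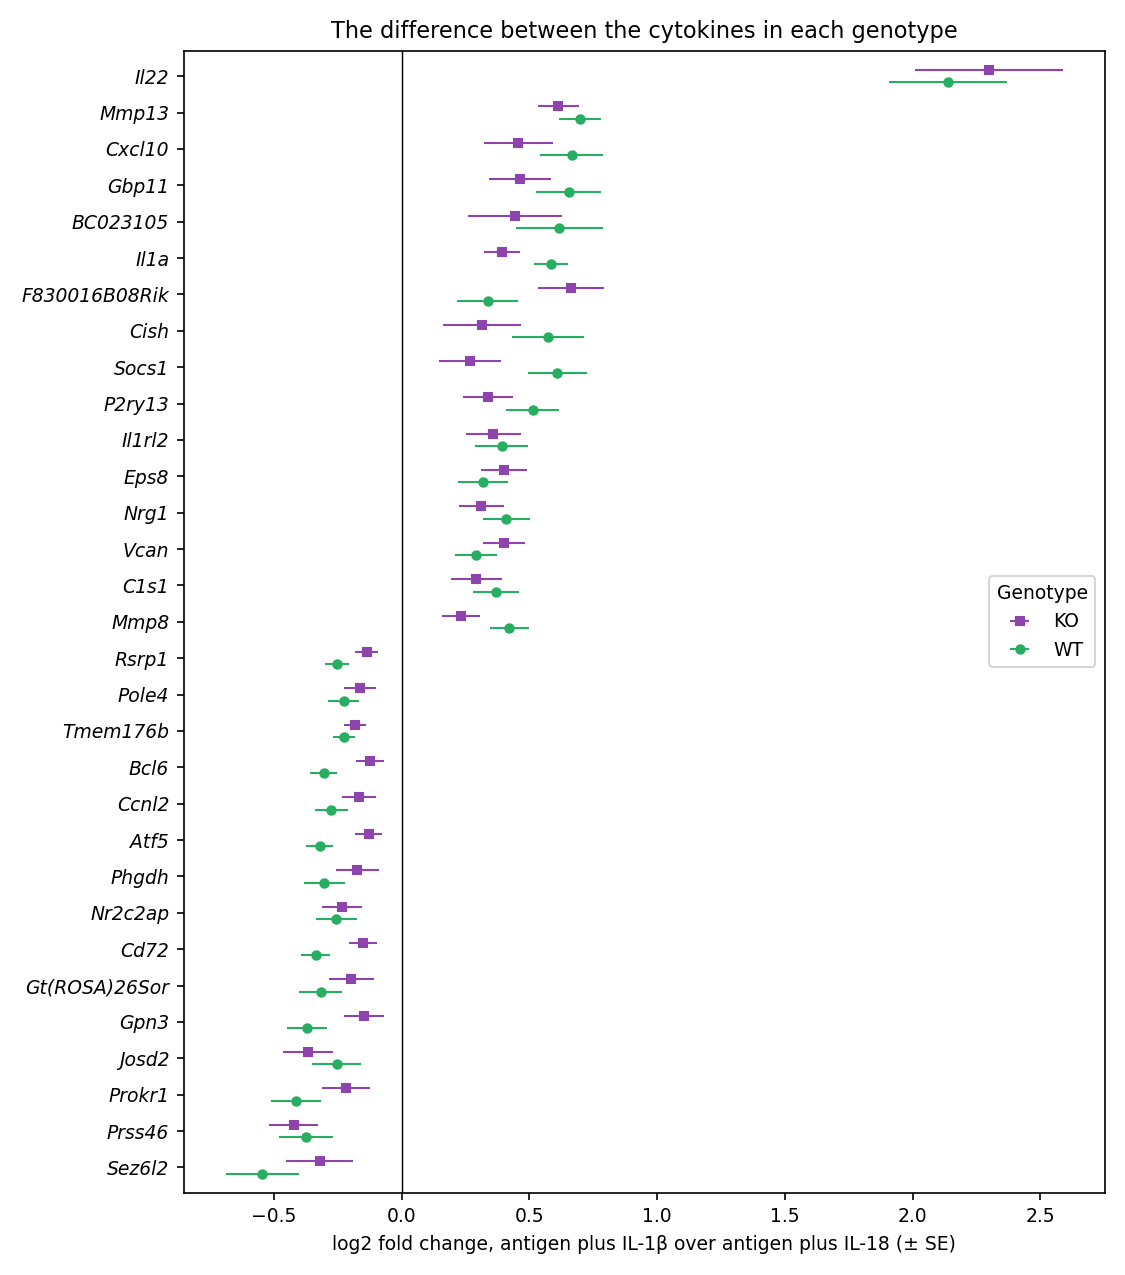
Log2 fold change (± SE) of antigen plus IL-1β over antigen plus IL-18 in knockout (squares) and WT (circles) for Il22 and the 15 highest and 15 lowest called genes with enough counts. Genes other than Il22 were chosen to have the same sign in both genotypes, so their shared sign is no result. Il22 stands beyond 2 and no other gene plotted beyond 0.7.

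The remaining called genes with higher levels spanned several functions. P2ry13, a receptor for ADP, rose by 0.42 ± 0.0719 (adjusted p 0.00755), and Acod1, the enzyme that makes itaconate in activated macrophages, by 0.14 ± 0.0267 (adjusted p 0.0145). Matrix and complement genes included Thbs1, thrombospondin 1, one of the abundant RNAs at 6250, 6060 and 6250 CPM in knockout with IL-1β against 4580, 5590 and 5270 CPM with IL-18, and at 6500, 6530 and 6460 CPM in WT with IL-1β against 4820, 5610 and 5360 CPM with IL-18. Its groups did not overlap (0.28 ± 0.045, adjusted p 0.014; named after its values were seen). Vcan, the proteoglycan versican, rose by 0.35 ± 0.0579 (adjusted p 0.0157), the EGF-like ligand Nrg1 by 0.36 ± 0.0619 (adjusted p 0.0157), and the complement protease C1s1 by 0.33 ± 0.066 (adjusted p 0.0157). Of 25 cell division genes 2 rose (0.796% of all tested genes did), Mki67, the proliferation marker (0.30 ± 0.0513, adjusted p 0.0157), and Cenpe, a kinetochore motor (0.26 ± 0.0602, adjusted p 0.0402); the median of the list was 0.0316. The count was 0 without WT IL-1β replicate 2, 2 without WT IL-1β replicate 1 or 3, knockout IL-18 replicate 2 or WT IL-18 replicate 2, and 1 without any other library. Cenpe kept its call in 3 of these 12 fits. Nlrp3, the inflammasome sensor upstream of both cytokines, rose by 0.13 ± 0.026 (adjusted p 0.0198) as the single call among 13 inflammasome genes, lost without WT IL-1β replicate 1 or 2 or WT IL-18 replicate 1.

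Genes lower with IL-1β than with IL-18 moved by smaller amounts. The lowest by rule were Sez6l2 (-0.42 ± 0.0974, adjusted p 0.0345), a neuronal membrane protein at 3.89 to 8.68 CPM, and Prss46, a serine protease. Prss46 stood at 11.6, 11.6 and 12 CPM in knockout with IL-1β against 17.3, 13.7 and 16.1 CPM with IL-18, and at 7.71, 8.26 and 8.3 CPM in WT with IL-1β against 11.3, 8.79 and 11.6 CPM with IL-18. It fell without overlap (-0.40 ± 0.0699, adjusted p 0.00888). Tmem176b, an intracellular membrane protein of myeloid cells, stood at 127, 128 and 130 CPM in knockout with IL-1β against 145, 144 and 148 CPM with IL-18, and at 136, 127 and 129 CPM in WT with IL-1β against 159, 141 and 157 CPM with IL-18. It fell by 0.20 on the log2 scale (adjusted p 0.00216), and its neighbour Tmem176a, named after its values were seen, by 0.15 (adjusted p 0.0107). Cd72, an inhibitory receptor of B cells and macrophages, stood at 131, 144 and 147 CPM in knockout with IL-1β against 161, 156 and 152 CPM with IL-18, and at 168, 156 and 157 CPM in WT with IL-1β against 216, 184 and 207 CPM with IL-18 (-0.25 ± 0.0473, adjusted p 0.0268).

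Further genes among the 49 lower calls are given singly, without a claim that they form groups. The stress factor Atf5 fell (-0.22 ± 0.044, adjusted p 0.0198), as did the asparagine synthetase Asns (-0.14 ± 0.0333, adjusted p 0.035) and the first enzyme of serine synthesis, Phgdh (-0.24 ± 0.0588, adjusted p 0.0454). Rsrp1, an arginine- and serine-rich protein, fell by 0.19 (adjusted p 0.0107) and the cyclin Ccnl2 by 0.22 (adjusted p 0.0335), and the splicing factors Srsf5 and Srsf11, named after their values were seen, each fell by 0.14 (adjusted p 0.0097 and 0.0304). With single libraries left out, Srsf5 and Rsrp1 kept their call in 12 of 12 fits, Atf5 in 10, Srsf11 in 5, Asns and Phgdh in 4 and Ccnl2 in 3. Of 83 cytosolic ribosomal protein genes 3 fell, Rplp1 and Rpl36 among them, and none rose, where 0.361% of all tested genes fell. Among the 83, 2 had a positive log2 fold change, and the median was -0.0619. The ribosomal count was 16 without knockout IL-18 replicate 2, 3 without knockout IL-1β replicate 1, 1 without knockout IL-1β replicate 3, WT IL-1β replicate 2 or WT IL-18 replicate 2, and 0 without any other library. Bcl6, a transcriptional repressor, fell by 0.22 (adjusted p 0.0194), and Apoe, the lipid carrier, by 0.12 (adjusted p 0.0268). Transcript length moved with these values: over 13546 genes the Spearman correlation of log2 fold change with length was 0.118 over both genotypes, 0.192 in knockout and -0.000335 in WT, and 48 of the 108 higher calls but 3 of the 49 lower calls were in the longest of 4 equal length classes. With each library's length trend removed, an alternative chosen after seeing the data, 147 of the 157 calls were kept.

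Among all tested genes 0.361% were called lower with IL-1β and 0.796% higher. Of the 14 listed genes known to answer IL-18 in lymphocytes, none was called lower with IL-1β and 1, Il12rb1, was called higher. Outside that list, 1 of 3 tested granzymes, Gzmc, was called lower, where 0.361% of all tested genes were. Gzmb, the main granzyme of killer cells, stood at 39.7, 30 and 40.7 CPM in knockout with IL-1β against 47.8, 39.4 and 45.8 CPM with IL-18, and at 29.5, 22.5 and 29.1 CPM in WT with IL-1β against 32.8, 29.1 and 36.2 CPM with IL-18. The libraries overlapped and Gzmb was not called by edgeR's test (-0.28, 95% interval -0.497 to -0.0528, adjusted p 0.205), while DESeq2 called it lower with IL-1β (-0.27, adjusted p 0.0364). Gzmc, another granzyme, named after its values were seen, had 3.31, 2.43 and 3.14 CPM in knockout with IL-1β against 4.2, 3.66 and 4.4 CPM with IL-18, and 2.3, 2.41 and 3.04 CPM in WT with IL-1β against 4.04, 3.67 and 3.97 CPM with IL-18. It fell by 0.53 (adjusted p 0.0159). This call was lost without WT IL-1β replicate 2, without WT IL-18 replicate 1 and with all 24 libraries in the fit. Antigen alone, at 2.77 to 5.65 CPM, spanned both cytokines. Gzma stood at 0.09 (-0.255 to 0.429) and Prf1, perforin, at -0.09 (-0.434 to 0.262), both near 1 to 3 CPM. None of 17 T cell, 7 NK cell, 8 B cell, 9 plasma cell and 9 dendritic cell markers was called by edgeR's test, and none of 181 immunoglobulin genes. Of 12 macrophage markers 1 was called higher, against 0.796% of all tested genes: Msr1, a scavenger receptor (0.10, adjusted p 0.0273). The count was 0 without knockout IL-1β replicate 2 or 3, WT IL-1β replicate 1 or 2, knockout IL-18 replicate 3 or WT IL-18 replicate 1 or 3, and 2 without knockout IL-1β replicate 1, knockout IL-18 replicate 2 or WT IL-18 replicate 2. None of 7 tested platelet markers was called and 1 of 7 was positive, Pf4 (log2 fold change 0.354). The sum of all 8 listed, Pf4 included, was 641 to 686 CPM in knockout and 467 to 502 CPM in WT with IL-1β. With IL-18 it was 585 to 639 CPM in knockout and 351 to 399 CPM in WT. These sums did not overlap in either genotype, although no tested member apart from Pf4 had a positive log2 fold change. The part of Pf4 in the sums was not tested. The plasma cell markers summed to 412 to 431 CPM in WT with IL-1β, against 400 to 411 CPM with IL-18, and overlapped in knockout. The summed T cell markers were 39 to 46.7 CPM in knockout and 48.2 to 50.2 CPM in WT with IL-1β, against 39.1 to 46.4 CPM in knockout and 45 to 50.8 CPM in WT with IL-18. NK cell markers summed to 12.8 to 16 CPM in knockout and 9.36 to 10.8 CPM in WT with IL-1β, against 15.1 to 16.8 CPM in knockout and 9.89 to 11.7 CPM in WT with IL-18. Ncr1, the defining NK receptor gene, had at most 13 counts.

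The inflammatory genes Tnf, Il6, Nos2 and Ptgs2 were not called in the main fit, whereas Il1a, Cxcl10, Acod1 and Nlrp3, described above, were called higher with IL-1β. Tnf stood at -0.11 (95% interval -0.305 to 0.0856), Il6 at 0.17 (-0.154 to 0.498), Nos2, the inducible nitric oxide synthase, at 0.01 (-0.328 to 0.348) and Ptgs2, the inducible cyclooxygenase, at 0.15 (-0.273 to 0.566). The neutrophil chemokines Cxcl1, Cxcl2 and Cxcl3 stood at 0.30 (0.12 to 0.479, adjusted p 0.0833), 0.20 (0.0418 to 0.364) and 0.58 (0.232 to 0.919, adjusted p 0.103) and were not called. The intervals of all 3 lay above 0, but none passed over all genes tested in the main fit. Of 20 alternative fits, Cxcl1 was called higher in 3, Cxcl2 in 2 and Cxcl3 in 1. Tnf was called lower in 1 of 20, and Il6, Nos2 and Ptgs2 in none of theirs. Of 12 inflammatory cytokine and growth factor genes none was called (median 0.0502). All 21 glycolysis and hypoxia genes had a negative log2 fold change between -0.236 and -0.000968 (median -0.0588), and none was called. Among all tested genes 49.7% were positive, and in each genotype alone 2 of the 21 were. Hif1a, outside that list and named after its values were seen, was called higher with IL-1β (0.12, adjusted p 0.0402). It kept its call in 4 of 12 fits with a library left out.

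**Figure D4:**
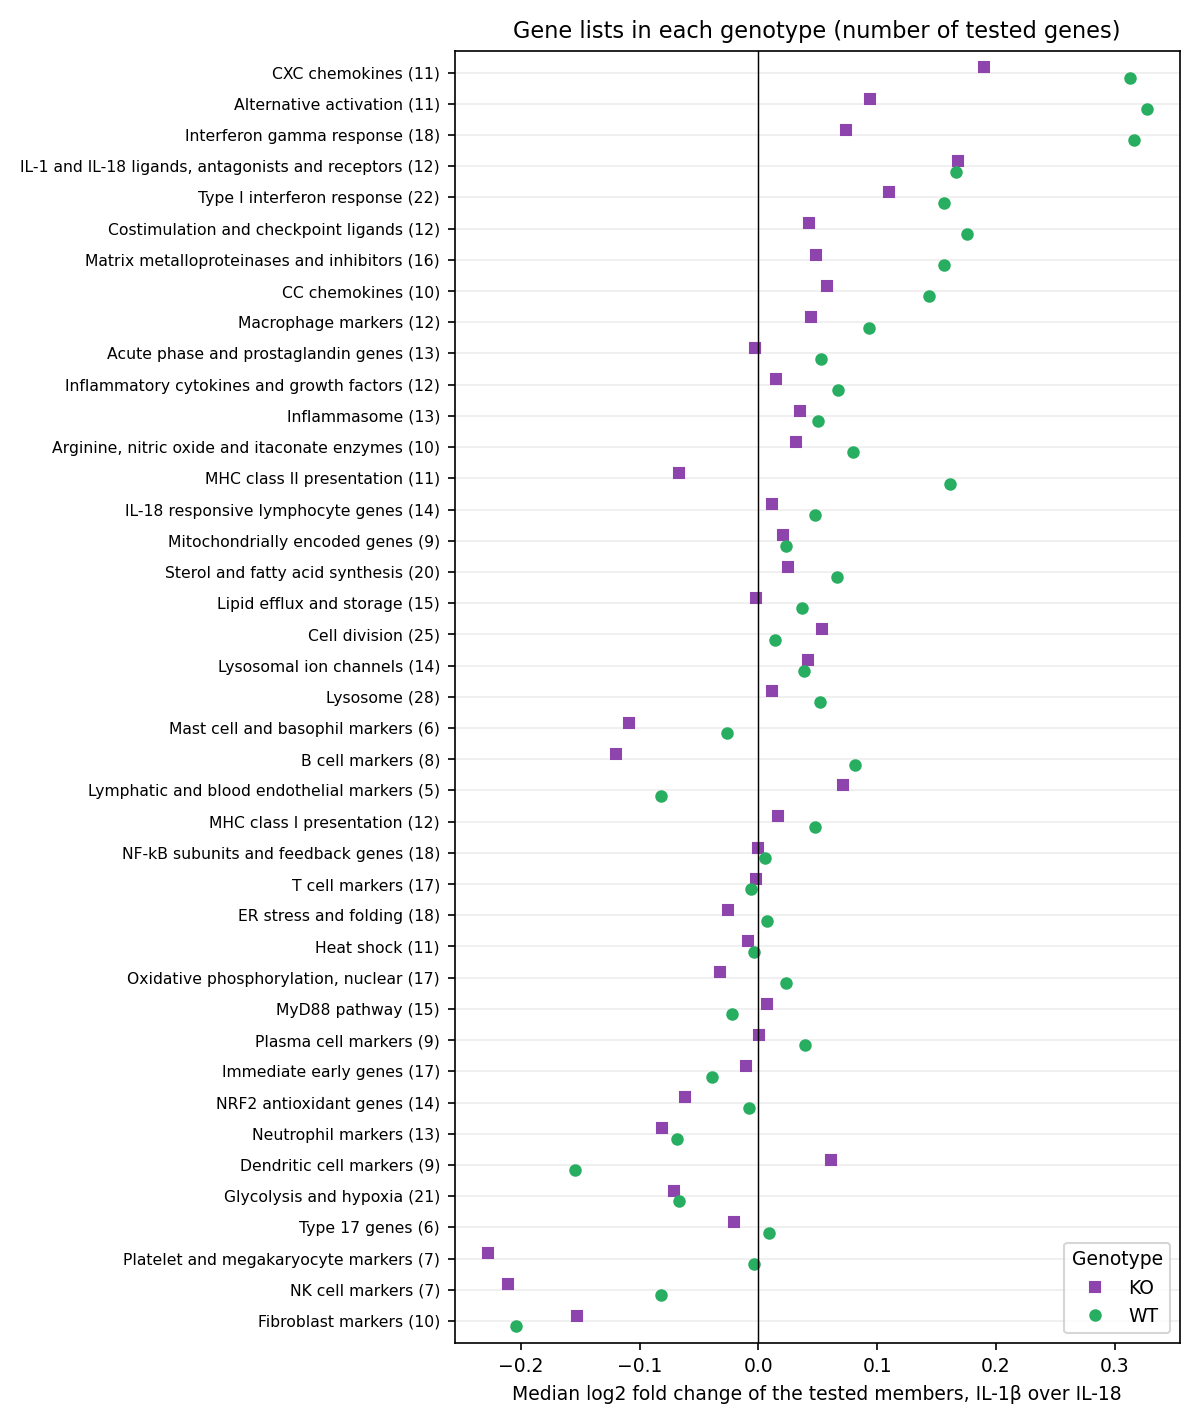
Median log2 fold change, antigen plus IL-1β over antigen plus IL-18, of each gene list with at least 5 tested genes, in knockout (squares) and WT (circles); the number of tested genes stands in brackets. The median of the interferon γ list was 0.0738 in knockout and 0.316 in WT, and the glycolysis list was below 0 in both.

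Fewer genes passed in each genotype alone. In knockout co-cultures 2 genes were called (0.0147% of those tested), Il22 and Mmp13, both higher with IL-1β; in WT co-cultures 54 were called (0.398%), 45 higher (0.332%) and 9 lower (0.0663%). The count in knockout was 52 without knockout IL-18 replicate 2, 5 without WT IL-18 replicate 1 and 1 without knockout IL-1β replicate 3 or knockout IL-18 replicate 3. The count in WT was 88 and 16 without knockout IL-1β replicate 2 or 3, 21, 6 and 13 without WT IL-1β replicate 1, 2 or 3, 123 and 24 without knockout IL-18 replicate 1 or 3, and 15, 264 and 15 without WT IL-18 replicate 1, 2 or 3. The contrasts of the genotypes rest on different libraries but come from 1 fit with a shared estimate of the spread, so p-values in knockout are no independent reading of genes called in WT. All 54 genes called in WT had the same sign in knockout, where 62.2% of all tested genes had the same sign in both. For the higher genes the median log2 fold change was 0.142 in knockout and 0.344 in WT, and for the lower genes -0.128 in knockout and -0.253 in WT; the WT values are raised by the choice of genes called there. The test of the difference itself called no gene with edgeR and none with DESeq2, and 562 of 13565 genes had an unadjusted p under 0.05 with edgeR.

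**Figure D5:**
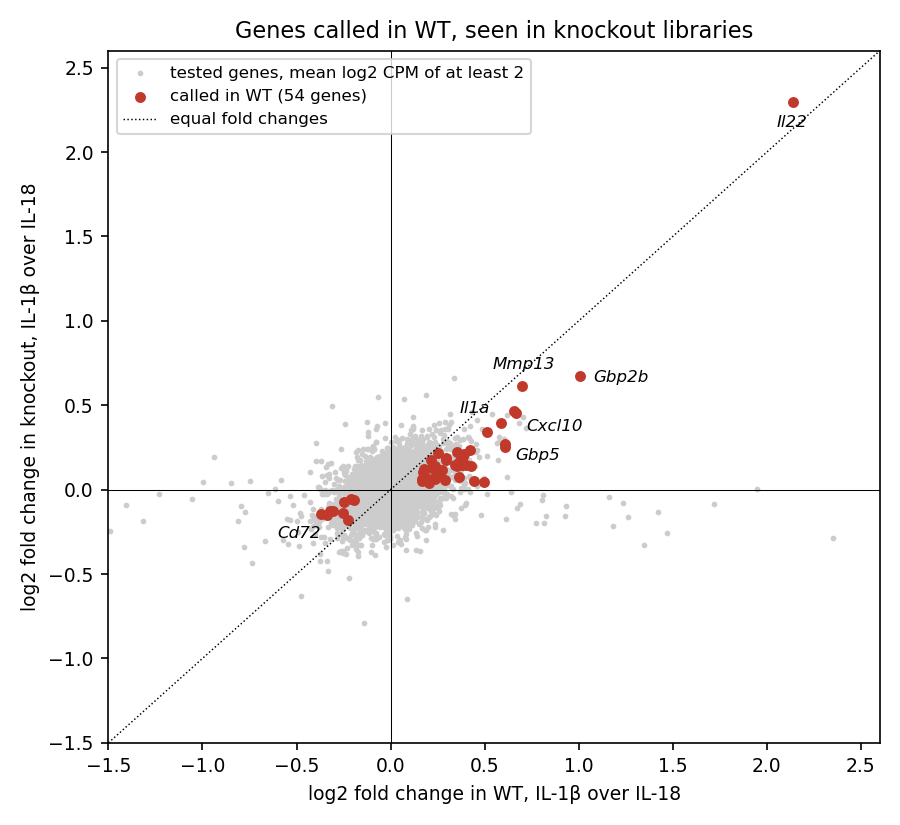
Log2 fold change of antigen plus IL-1β over antigen plus IL-18 in knockout (vertical) and WT (horizontal) for the 54 genes called in WT (large points) and for other tested genes averaging 2 log2 CPM or more (small points; points beyond the axes are not drawn); the dotted line marks equal values. All 54 genes share their sign, and most lie below the line on the positive side.

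The interferon γ list had all 18 genes with a smaller log2 fold change in knockout than in WT (median difference -0.197, against -0.00315 over all tested genes), and none was called in that test. In knockout no gene of the list was called by edgeR's test and the median was 0.0738, with 14 of 18 positive; in WT 7 of 18 were called higher (2 without knockout IL-1β replicate 3, 1, 0 and 1 without WT IL-1β replicate 1, 2 or 3, 1 without knockout IL-18 replicate 3, 4 without WT IL-18 replicate 1 and 2 without WT IL-18 replicate 3) and the median was 0.316, with 18 of 18 positive. The medians over all tested genes were -0.00103 in knockout and 0.00142 in WT. Of all tested genes 0.0147% were called higher in knockout and 0.332% in WT. Positive values made up 49.6% of all tested genes in knockout, 50.5% in WT and 48.7% for the difference of knockout minus WT. Gbp5 had a log2 fold change of 0.25 ± 0.0888 in knockout and 0.61 ± 0.0889 in WT, a difference of -0.36 (95% interval -0.636 to -0.0748, unadjusted p 0.0182, adjusted p 0.9999). Gbp7 had 0.20 ± 0.0555 in knockout and 0.39 ± 0.0556 in WT, a difference of -0.19 (-0.355 to -0.0212). Cxcl10 had 0.46 ± 0.135 in knockout and 0.67 ± 0.124 in WT, a difference of -0.21 (-0.604 to 0.185). Il22 and Mmp13 had differences of 0.16 (-0.66 to 0.979) and -0.08 (-0.325 to 0.156), so neither a shared nor an unequal size can be told for them at this spread. Among the genes with the lowest p in that test, Trdmt1, an RNA cytosine methyltransferase, had 7.27, 6.77 and 7.67 CPM in knockout with IL-1β against 8.35, 7.91 and 8.23 CPM with IL-18, and 7.56, 7.85 and 7.69 CPM in WT with IL-1β against 6.1, 6.34 and 5.79 CPM with IL-18. Its groups were apart in opposite directions, and it was not called (-0.52 ± 0.128, unadjusted p 0.000645, adjusted p 0.9999).

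Levels with antigen alone place the differences. Averaged over both genotypes, antigen alone lay nearer to IL-18 than to IL-1β in 92 of the 108 genes higher with IL-1β (85.2%) and in 36 of the 49 lower genes (73.5%), against 58.5% of all tested genes. It lay between the cytokines in 82 of the 108 and in 36 of the 49, against 4594 of all 13565 tested genes. Called genes were chosen for a distance between the cytokines, which by itself makes a place between them more likely. The median log2 distance from antigen alone was 0.155 with IL-1β and -0.0491 with IL-18 for the higher genes, and -0.131 with IL-1β and 0.046 with IL-18 for the lower genes. Antigen alone is shared by both distances, and no test was made of them.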

How the data were processed

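Poly(A) RNA of 24 mouse co-cultures was sequenced. The deposited table holds raw counts per Ensembl gene, made by the authors from reads trimmed with fastp with GRCm39 as build, per the submitters' processing notes; the aligner, counter, annotation release and strand setting are not given in the sources used here, so antisense and near-identical genes are uncertain. The 12 compared libraries held 18768422 to 24898552 counts. Groups came from the sample titles. Of 55487 identifiers 346 had no symbol.

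Genes were kept with filterByExpr over the 4 groups (13565 genes, 99.9% of counts) and scaled with TMM factors of all 24 libraries. edgeR 4.0.16 in R 4.3.3 was run as a robust quasi-likelihood test: genotype plus cytokine on 12 libraries (9 residual degrees of freedom), and 1 mean per group for each genotype alone and for the difference between genotypes (8 residual degrees of freedom). The common biological coefficient of variation was 4.4%. Calls have a Benjamini-Hochberg adjusted p under 0.05; log2 fold changes are IL-1β over IL-18. The scripts were tested on simulated counts.

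The comparison and the gene lists (43 lists, 592 genes, 3 not found, 530 tested) were chosen with earlier results of these data known. Named by rule, at or above 2 log2 CPM on average, were the 15 highest and 15 lowest called genes over both genotypes, 6 and 6 per genotype, the 6 with the lowest p where none was called, up to 4 called members per list and a set of cytokine genes; others are genes of the families described or are said to be named after their values were seen, which holds also for Gbp2b, Gbp8, Cxcl2, Cxcl3, Ptgs2, Mmp9, Mmp12, Gzma, Prf1, Dcn, Il23r, Csf2ra and Adgre1. The 15 highest and 15 lowest genes over both genotypes also had to have the same sign in each genotype alone. Transcript lengths came from GENCODE vM21. Alternatives were DESeq2 1.42.0, its size factors, TMM of the 12 libraries, no filter, a fit of all 24 libraries, a replicate block, each genotype's 6 libraries alone and each library left out.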

Additional observations from a re-analysis of the deposited data

How the results depend on the processing

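Directions were steadier than counts. Among 4571 alternative values of 228 gene results, 3881 kept side and direction, 567 lost the threshold, 120 passed it, 3 uncalled values changed sign by more than 1 SE (Ifng and Il6 in knockout without knockout IL-1β replicate 1, Ltf over both genotypes without knockout IL-18 replicate 3) and no called value reversed. Of the 157 calls 20 held in every setting that gave an adjusted p, 15 higher and 5 lower with IL-1β. Mmp13, Cxcl10, Gbp11 and Cd274 over both genotypes lost their call in the fit of all 24 libraries and in no other. The calls over both genotypes (157) became 343 with DESeq2, 674 with no filter on low counts, 67 with all 24 libraries in the fit, 247 with the length trend removed and 487 without both knockout replicate 2 libraries; those in WT (54) became 160, 458, 9, 89 and 169, and 318 with the 6 WT libraries alone. The knockout count (2) became 10 with DESeq2, 120 with no filter, 6 with the length trend removed and 4 with its 6 libraries alone, and the difference between genotypes (0) became 2 with no filter. The alternatives on length and on knockout replicate 2 were chosen after seeing the data. Single libraries left out gave 38 to 607 calls over both genotypes, 6 to 264 in WT and 1 to 52 in knockout, and none in the difference between genotypes; the causes were not tested. Under each scaling the median over all tested genes stayed within 0.1 (log2) of 0. Low counts limit Il22, Mmp3 and Mmp10.

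Whether replicate numbers pair the samples is not stated in the labels. Same-numbered libraries correlated at 0.0398 to 0.315 in their deviations, over 0.1 in 3 of 6 pairs. Of 12 libraries 10 correlated best with their own number among the 3 of the other cytokine and the same genotype. The main fit, and so each call and missed call above, did not use the numbers as pairs. A replicate block gave 910 calls over both genotypes, 673 in WT, 103 in knockout and 1 in the difference between genotypes. Gzmb over both genotypes was called lower with IL-1β under the block (-0.27, adjusted p 7.96e-05).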
